A study of Mus musculus with 168 samples.

Results

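The receptors described here are those through which motor neurons receive trophic support: Ret, Gfra1, Gfra2, Gfra3, Ntrk2, Ntrk3, Ngfr, Lifr and Cntfr. They were taken by symbol as 9 rows of a table of 39410 genes, and each symbol was found once. Neurons had been cut by laser from frozen brain and spinal cord sections of delta7 mice, a model of spinal muscular atrophy (SMA), and of their littermates at postnatal days 2, 5 and 10. SMA mice were Smn-/- and controls Smn+/+, and both groups were homozygous for the human SMN2 and SMNΔ7 transgenes, so controls are transgenic too. The populations were motor neurons of the oculomotor and trochlear nuclei (ocular below), the facial, hypoglossal and vagus nuclei and the lumbar spinal cord, and red nucleus neurons, which are not motor neurons. Each tube held about 150 cells, so a level is an average over cells, and fewer expressing cells and less RNA per cell cannot be told apart.

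These receptors belong to 3 families. Ligands of the glial cell line-derived neurotrophic factor (GDNF) family bind a co-receptor on the cell surface and signal through the tyrosine kinase RET. The co-receptors among the members are GFRα1, GFRα2 and GFRα3 (Gfra1, Gfra2, Gfra3), with preferred ligands GDNF, neurturin and artemin. A further co-receptor, GFRα4 (Gfra4), is not a member here. The neurotrophins act on the kinases TrkB (Ntrk2, for BDNF and neurotrophin-4) and TrkC (Ntrk3, for neurotrophin-3) and on p75 (Ngfr), which binds all neurotrophins and is known to be high in developing and injured motor neurons. Ciliary neurotrophic factor (CNTF) binds the co-receptor CNTFRα (Cntfr) and signals through LIFRβ (Lifr) and gp130 (Il6st), which activate JAK kinases and STAT3. Members of all 3 families are known to support the survival of motor neurons.

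There were 34 mice (15 controls and 19 SMA) and 168 libraries, joined into 160 samples of 1 mouse and 1 population, with 3 to 7 mice in each of 36 groups. Levels are in RPKM, reads per gene length and depth. The gene lengths behind the values are not given, so comparisons of level between members are approximate. Depth recovered from the table ran from 0.342 to 16.3 M reads per library with a median of 5.89 M. Control mouse 252 gave the shallowest library, from its red nucleus at day 10. Smn1, the deleted gene, was at 4.32 RPKM or more in every control sample and at 4.24 or less in every SMA sample, and it was lower in SMA in all 18 comparisons of genotype. In controls Chat, which makes acetylcholine, averaged 20.2 to 34.0 RPKM in the motor populations and 0.176 in the red nucleus, and Pou4f1, a red nucleus factor, averaged 228 in the red nucleus and at most 1.95 elsewhere. Both markers went with the labelled populations.

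Motor pools and the other neurons differed first of all in the RET system. Ret was detected in every library. In controls it averaged 121 ± 15.4 RPKM (SD, n = 13 mice) in lumbar, 104 ± 14.8 (n = 13) in facial, 86.1 ± 7.66 (n = 12) in hypoglossal and 71.2 ± 16.4 (n = 12) in ocular motor neurons. It averaged 20.9 ± 9.67 (n = 11) in the red nucleus and 18.6 ± 5.05 (n = 11) in vagus motor neurons. The lowest ocular sample was at 41.4 RPKM, above the highest red nucleus sample at 35.9 and the highest vagus sample at 26.7, so the 4 somatic or branchial motor populations lay wholly above the other 2. The steps from lumbar to facial and from facial to hypoglossal neurons were larger than either SD, with overlapping ranges. Hypoglossal and ocular levels differed by less than the larger SD, as did red nucleus and vagus levels.

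Gfra1, the co-receptor for GDNF, was more sharply restricted. Its control mean was 29.9 ± 6.10 RPKM in facial, 25.4 ± 9.61 in lumbar, 23.7 ± 6.66 in hypoglossal and 9.91 ± 4.20 in ocular motor neurons. It was 1.54 ± 1.58 in vagus motor neurons, where 1 mouse was at 0 and the highest at 4.54, and 0.156 ± 0.192 in the red nucleus, where the highest of 11 mice was at 0.522. Facial, lumbar and hypoglossal levels differed by less than their spread, and so did vagus and red nucleus levels. The red nucleus mean of Gfra1 was close to the value of 3 reads in a library of median depth, 0.0930 RPKM, and the vagus mean was above it. Gfra4, which is not a member, averaged 41.8 RPKM in vagus and 38.15 in red nucleus controls. Elsewhere its control means ran from 17.5 in ocular to 55.0 in hypoglossal neurons.

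Gfra2, the co-receptor for neurturin, was flatter. Control means fell from 18.0 ± 6.65 in lumbar and 15.9 ± 7.30 in ocular through 11.7 ± 5.59 in hypoglossal and 11.1 ± 6.13 in facial to 6.91 ± 3.19 in vagus and 6.08 ± 6.56 RPKM in the red nucleus. No neighbours in this order differed by more than the larger SD. Gfra3, the co-receptor for artemin, was at 0 in 124 of 168 libraries and at or under 3 reads in 137. Its highest mouse value was 4.89 RPKM in an ocular SMA sample at day 2, and all 11 vagus controls were at 0. At 3 reads in the median library, 0.255 RPKM, a lower level could not have been told from 0. Gfra3 passed the filter on low values in the fits of ocular and facial neurons and in those over all populations.

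The Trk kinases differed little between populations other than the vagus. Ntrk2 averaged 31.8 ± 6.75 RPKM in vagus controls and 18.9 ± 3.80 to 22.95 ± 6.02 in the other 5 populations. Ntrk3 averaged 31.9 ± 12.01 in vagus controls and 15.8 ± 7.47 to 20.2 ± 5.06 elsewhere. The vagus, lowest in Ret, was thus highest in both, although for Ntrk3 the step to the next population was within the larger SD. The rows join all transcripts of a gene, so full-length receptors and the truncated forms that lack the kinase are not separated. Truncated TrkB is known from astrocytes. The summed level of 9 astrocyte markers was lower in vagus controls than in any other population at each day, at 471.5, 506.6 and 696.5 RPKM. Aldoc made up most of this sum, and each other marker averaged 20.93 RPKM or less in vagus controls. Of these markers 3 were called higher in the vagus (Gja1, Gfap and Slc1a3) and 1 lower (Aldoc, at 494.7 RPKM against 1148 to 1612 elsewhere). Their part in the Ntrk2 level was not tested.

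Ngfr differed widely between motor populations. Over all days it averaged 39.4 ± 21.3 RPKM in facial, 21.8 ± 11.5 in hypoglossal, 17.0 ± 16.9 in lumbar and 8.33 ± 8.63 in ocular controls, against 2.54 ± 2.01 in the red nucleus and 1.06 ± 1.43 in the vagus. The SDs are large because the level changed with age, as described below. Of the Schwann cell markers, Pmp22 averaged 238 RPKM in facial controls and 2.15 in the red nucleus, and its part in the Ngfr level was not tested.

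Lifr and Cntfr differed from each other. Lifr averaged 48.5 ± 12.5 RPKM in hypoglossal, 36.5 ± 6.80 in facial and 20.7 ± 7.84 in lumbar controls, then 12.9 ± 3.12 in the red nucleus, 7.69 ± 3.34 in ocular and 5.20 ± 2.86 in vagus neurons. The lowest facial sample, 28.5 RPKM, was above every control sample of the ocular, vagus and red nucleus groups. Cntfr averaged 5.36 ± 3.46 to 8.88 ± 2.90 in all 6, and no neighbours in its order differed by more than the larger SD.

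**Figure D1:**
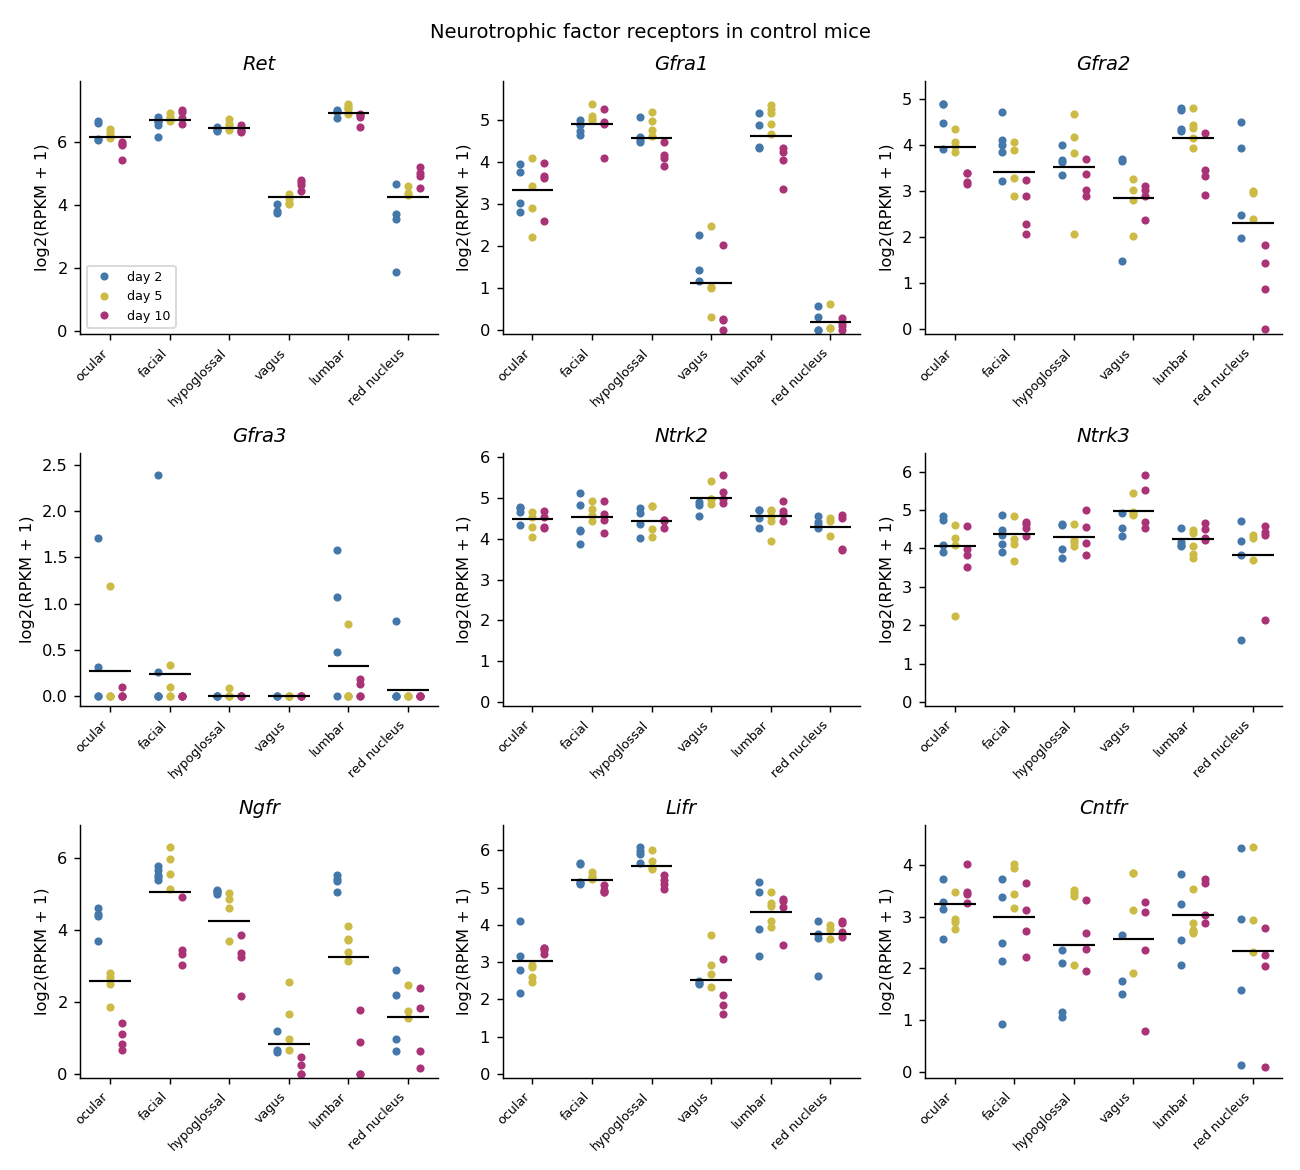
Levels of the 9 receptors in control mice, as log2(RPKM + 1) on a separate vertical axis for each gene, by captured population. Each point is 1 mouse, coloured by postnatal day, and the line is the mean of the points. Ret separates the vagus and red nucleus from the other populations, Gfra1 is low in both but overlaps between vagus and ocular neurons (up to 4.54 and from 3.61 RPKM), Ntrk2, Ntrk3 and Cntfr are nearly level, and Gfra3 lies near 0.

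A moderated test with limma on log2(RPKM + 1), with the mouse as a block, compared the 6 populations in controls. It called 7 of the 9 members at an adjusted p (Benjamini-Hochberg over all genes) under 0.05, where 45.8% of the 19621 genes tested were called. The highest adjusted p among the 7 was 0.0063, for Ntrk3, and the lowest was 2.05e-32, for Gfra1. Cntfr (adjusted p = 0.0863) and Gfra3 (adjusted p = 0.343) did not pass.

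Each population was then set against the mean of the other 5. Facial neurons had 4 of 9 members higher, with 9.72% of all genes called: Ngfr by 2.50 ± 0.18 (log2, SE), Gfra1 by 2.16 ± 0.15, Lifr by 1.35 ± 0.14 and Ret by 1.11 ± 0.10. Hypoglossal neurons had the same 4 genes higher, with 11.3% of all genes called, led by Lifr at 1.82 ± 0.14, Gfra1 at 1.74 ± 0.16 and Ngfr at 1.62 ± 0.19. In lumbar neurons Gfra1 (1.75 ± 0.15), Ret (1.35 ± 0.10) and Gfra2 (0.91 ± 0.19) were higher, with 18.9% of all genes called. In ocular neurons Ret (0.43 ± 0.10) and Gfra2 (0.71 ± 0.19) were higher and Lifr was lower (−1.24 ± 0.14), with 18.4% of all genes called. The ocular Gfra2 call was lost without the libraries of a single ocular nucleus (0.66, adjusted p = 0.171).

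Vagus and red nucleus neurons stood on the other side. In the vagus 7 members were called, with 28.5% of all genes called. Ngfr (−2.52 ± 0.20), Gfra1 (−2.37 ± 0.17), Ret (−1.87 ± 0.11), Lifr (−1.87 ± 0.14) and Gfra2 (−0.60 ± 0.20) were lower, and Ntrk3 (0.77 ± 0.19) and Ntrk2 (0.53 ± 0.10) were higher. In the red nucleus 6 members were lower and none was higher, with 22.6% of all genes called: Gfra1 (−3.52 ± 0.17), Ret (−1.82 ± 0.11), Ngfr (−1.56 ± 0.20), Gfra2 (−1.23 ± 0.20), Ntrk3 (−0.53 ± 0.19) and Ntrk2 (−0.32 ± 0.10). The Gfra2 call in the vagus was lost without control mouse 29 or 244 singly and with a pseudocount of 0.1, and was −0.35 without mouse 244. The Ntrk3 call in the red nucleus was lost under 8 of 22 alternatives and was −0.31 without control mouse 26. The red nucleus Ntrk2 call was lost without control mouse 34 or 247 singly.

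Jak1, Stat3 and Socs3, which act below the CNTF and LIF receptors, had their 2 highest means in hypoglossal and facial controls, as Lifr did, while Il6st and Jak2 did not. Jak1 averaged 143 RPKM in hypoglossal and 138 in facial controls against 90.0 in lumbar, 53.6 in ocular, 49.5 in vagus and 45.6 in red nucleus neurons. Stat3, the transcription factor downstream, averaged 30.7, 29.1 and 24.4 in hypoglossal, facial and lumbar controls and 6.50 in the red nucleus. Socs3, a target of STAT3 that inhibits the same receptors, averaged 5.47 in hypoglossal and 4.27 in facial controls and 0.0181 to 0.894 in the other 4. All 3 were called higher in hypoglossal and in facial neurons, Socs3 by 1.86 ± 0.16 and 1.44 ± 0.16 (adjusted p = 4.09e-14 and 1.49e-10). Osmr, a receptor of the same family, was called higher in hypoglossal neurons alone (1.68 ± 0.18), with means of 4.18 RPKM there and 1.28 or less elsewhere. Il6st, the shared subunit gp130, spread less, from 5.19 in the vagus to 12.3 in hypoglossal neurons. The ligands were low. Cntf was at 0 in 154 of 160 samples, Lif in 129 and Gdnf in 125. Bdnf averaged 10.9 RPKM in the red nucleus and 1.18 in ocular controls, and Ntf3, which encodes neurotrophin-3, averaged 6.00 in lumbar and 5.25 in facial controls.

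Over lists written for this pathway, the population test called 7 of 13 ligands tested, 9 of 11 other receptors, 18 of 24 adaptors and kinases and 12 of 14 feedback and target genes, against 45.8% of all genes tested, so the share of ligands lay near that of all genes. In the red nucleus, where 22.6% of all genes were called, 8 feedback and target genes were lower and 1 higher, among them Vgf (−1.03 ± 0.10), a target of neurotrophin signalling, and Fos (−1.86 ± 0.27). In lumbar neurons, where 18.9% of all genes were called, 6 of the 14 were higher and none lower. Sorcs1, a sortilin-family receptor, passed as higher in lumbar, facial and ocular neurons (0.75 ± 0.16, 0.65 ± 0.16 and 0.96 ± 0.16) and lower in the vagus and red nucleus. Pik3r1, a subunit of PI3 kinase, was highest in ocular neurons (24.0 RPKM, 1.35 ± 0.13). Nrtn, which encodes the ligand neurturin, was also highest there (5.35 RPKM, 1.24 ± 0.25). Etv1, an ETS transcription factor, averaged 5.36 RPKM in facial controls (1.42 ± 0.20) and 2.62 or less elsewhere.

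Some genes followed a member closely over the 18 control groups of population and day, as a description across groups that share mice and days. The 3 genes of highest Pearson r were Laptm4b (0.964), Metrnl (0.960) and Fermt2 (0.953) for Ret, and Anxa2 (0.975), Chodl (0.969) and Sema3a (0.966) for Gfra1. For Lifr they were Kitl (0.919), Rspo2 (0.916) and Socs3 (0.896), and for Ngfr Slc44a5 (0.904), Aldh1l2 (0.903) and Ccl2 (0.892). Ntrk2 was followed by Srebf2 (0.918) and Ntrk3 by Tmcc3 (0.914), while for Gfra2 (Cpeb4, 0.858) and Cntfr (Tsfm, 0.774) no gene came as close. Between members, Ret and Gfra1 gave r = 0.920 and Ntrk2 and Ntrk3 gave 0.867, and no other pair exceeded 0.746.

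Positions in GRCm38, from GENCODE M21, are chr6:118151745-118197718 for Ret, chr19:58235604-58455909 for Gfra1, chr14:70890120-70979838 for Gfra2, chr13:58806569-59133970 for Ntrk2 and chr7:78175959-78738012 for Ntrk3. They are chr11:95568818-95587735 for Ngfr, chr15:7090614-7197489 for Lifr and chr4:41657498-41697089 for Cntfr. Each is annotated as a protein-coding gene.

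Ngfr and Gfra1 showed the largest differences between populations, and their promoters are shown for that reason. RefSeq promoter entries (GRCm38.p6, 250 bases before to 50 after the start) matched 5 of the 9 members, Ngfr, Gfra1, Ntrk2, Lifr and Cntfr. The windows are chr11:95587649-95587948 for Ngfr and chr19:58455349-58455648 for Gfra1, both on the minus strand and printed 5′ to 3′ along the gene. Capitals mark the E box CAGCTG and the GC box GGGCGG, searched on both strands, which do not overlap each other here.
Ngfr: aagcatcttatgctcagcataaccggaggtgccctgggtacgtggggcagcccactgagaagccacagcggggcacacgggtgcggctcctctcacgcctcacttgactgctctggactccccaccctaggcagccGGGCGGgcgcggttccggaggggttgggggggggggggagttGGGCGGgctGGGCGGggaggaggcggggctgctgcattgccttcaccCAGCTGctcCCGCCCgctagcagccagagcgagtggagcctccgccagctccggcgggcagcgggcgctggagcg
Gfra1: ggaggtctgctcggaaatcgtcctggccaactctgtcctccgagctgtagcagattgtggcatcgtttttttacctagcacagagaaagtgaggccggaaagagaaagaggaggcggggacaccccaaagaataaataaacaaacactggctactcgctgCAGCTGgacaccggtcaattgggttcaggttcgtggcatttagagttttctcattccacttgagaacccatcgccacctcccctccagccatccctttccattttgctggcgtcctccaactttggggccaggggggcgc
The Ngfr window held 1 E box and 4 GC boxes, and the Gfra1 window held 1 E box and no GC box. Among 32817 promoter windows of this length, 16.3% held the E box and 35.6% the GC box, so both motifs are common.

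Age changed p75 more than any other member. In lumbar controls Ngfr was at 45.1, 41.6, 40.3 and 32.4 RPKM at day 2, at 12.6, 16.3, 9.41, 12.2 and 7.75 at day 5, and at 0, 0.863, 2.44 and 0 at day 10. No 2 of these ages overlapped. The mean fell from 39.9 to 0.826 RPKM, which was −4.67 ± 0.33 on the log2(RPKM + 1) scale with adjusted p = 4.53e-11, and 12% of genes were called in that comparison. In recovered reads, rounded to whole numbers, the 4 lumbar libraries held 3254 reads of Ngfr at day 2 and 39 at day 10.

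The same fall was seen in the ocular, facial and hypoglossal nuclei. Ocular controls were at 20.2, 11.98, 21.0 and 23.6 RPKM at day 2 and at 1.17, 0.596, 0.768 and 1.67 at day 10 (−3.29 ± 0.36, adjusted p = 8.3e-07, 8.02% of genes called). Facial controls were at 43.7, 45.8, 54.3, 50.5 and 40.7 at day 2, stayed at 34.7 to 78.1 at day 5 and were at 9.12, 7.19, 29.4 and 9.84 at day 10 (−1.89 ± 0.34, adjusted p = 0.000809, 5.36% of genes called). Hypoglossal controls were at 31.4, 32.5, 33.9 and 33.0 at day 2 and at 3.47, 13.6, 9.32 and 8.52 at day 10 (−1.91 ± 0.41, adjusted p = 0.0048, 5.11% of genes called). Days 2 and 10 did not overlap in any of these. In the red nucleus Ngfr averaged 2.90 at day 2 and 1.87 at day 10, and in the vagus 0.801 and 0.143, and neither passed. SMA mice went the same way, from 47.8 to 1.91 RPKM in lumbar and from 16.8 to 1.52 in ocular neurons.

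**Figure D2:**
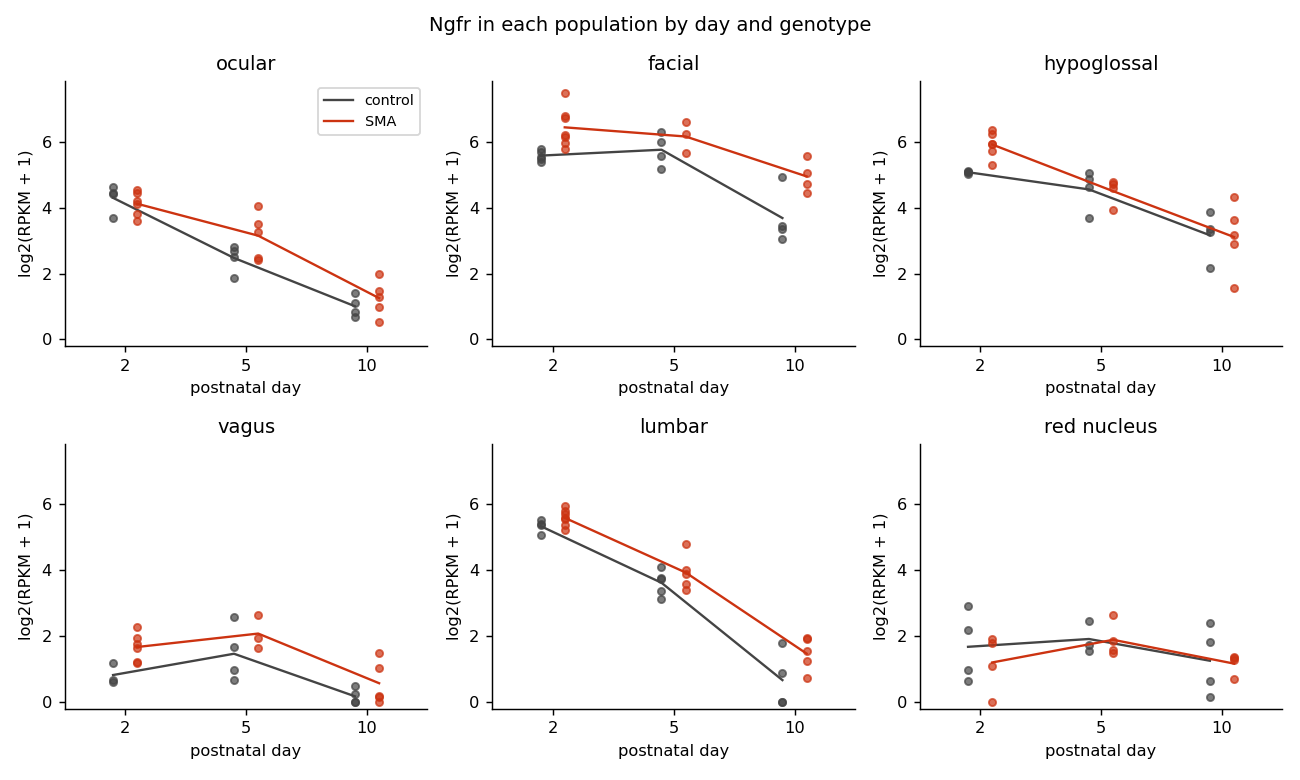
Ngfr level as log2(RPKM + 1) by postnatal day in each population, with 1 point per mouse and lines through the group means, for control and SMA mice. The level drops to day 10 in ocular, facial, hypoglossal and lumbar neurons of both genotypes, and at day 2 the 6 hypoglossal SMA mice, at 38.5 to 81.6 RPKM, lie above the 4 controls, at 31.4 to 33.9.

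Gfra2 fell in 4 populations. Ocular controls were at 28.5, 21.3, 28.9 and 14.0 RPKM at day 2 and at 7.92, 8.14, 9.59 and 9.53 at day 10 (−1.26 ± 0.28, adjusted p = 0.00397). Lumbar controls went from 18.7, 26.3, 27.0 and 19.3 to 6.55, 8.99, 18.3 and 10.0 (−1.06 ± 0.29, adjusted p = 0.0124). Red nucleus controls went from 2.97, 4.57, 14.4 and 21.8 to 0, 0.845, 1.70 and 2.55 (−2.20 ± 0.50, adjusted p = 0.00516, 11.1% of genes called). These 3 pairs of groups did not overlap. In facial controls the mean went from 15.6 to 5.52 RPKM (−1.35 ± 0.33, adjusted p = 0.0123), and the lowest day 2 mouse, at 8.29, was below the highest day 10 mouse, at 8.52.

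The red nucleus values of Gfra2 at day 10 rest on 56 reads in 4 libraries, 1 of them the shallowest, and without it the change was −2.15 (adjusted p = 0.016). The lumbar call was lost without control mouse 247 (adjusted p = 0.0691), the facial call without control mouse 252 (adjusted p = 0.0615).

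**Figure D3:**
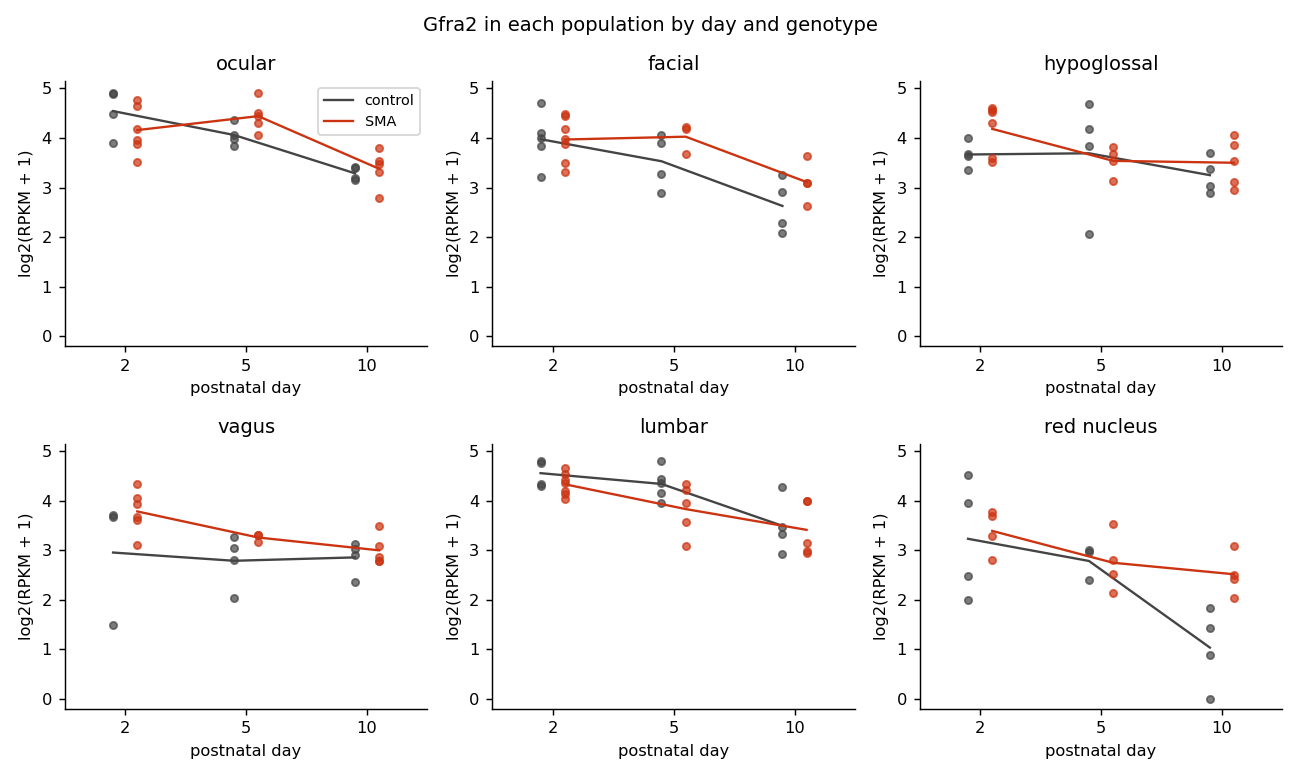
Gfra2 level as log2(RPKM + 1) by postnatal day in each population, with 1 point per mouse and lines through the group means, for control and SMA mice. Control levels fall to day 10 in ocular, facial, lumbar and red nucleus neurons, and at day 10 the 4 red nucleus SMA mice, at 3.10 to 7.50 RPKM, lie above the 4 controls.

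A further 3 members moved with age in 1 population each. Lifr fell in hypoglossal controls from 66.9, 59.3, 62.3 and 49.5 RPKM to 39.3, 35.6, 33.5 and 30.3 (−0.76 ± 0.20, adjusted p = 0.02), with no overlap. Gfra1 fell in lumbar controls from 19.3, 19.4, 28.3 and 34.9 to 17.8, 15.6, 9.20 and 19.1 (−0.69 ± 0.21, adjusted p = 0.031). Ret rose in the red nucleus from 24.4, 2.64, 12.1 and 10.6 to 22.3, 35.9, 30.8 and 29.3 (1.47 ± 0.37, adjusted p = 0.0107), and the 2 days overlapped through mouse 14. The Lifr call was lost without control mouse 26, 240 or 254 singly (adjusted p = 0.0714, 0.0549 and 0.0725). The Gfra1 call was lost without control mouse 240, 244, 252 or 253 singly, with −0.48 without mouse 253, and also with quantile normalization (−0.62, adjusted p = 0.0573) and with only the 2 days in the fit (−0.69, adjusted p = 0.121). The Ret difference passed in no motor population. Its means at days 2 and 10 were 82.5 and 83.0 RPKM in hypoglossal controls, and the days also overlapped in facial and lumbar controls. In ocular controls Ret went from 81.94 to 55.35 (−0.55 ± 0.19, adjusted p = 0.0762) and in vagus controls from 13.47 to 24.22, both without overlap.

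In all, 11 of 50 age comparisons of members were called, 10 of them lower at day 10, and none was in the vagus, where 1.02% of genes were called. The share of all genes called was 8.02% in ocular, 5.36% in facial, 5.11% in hypoglossal, 12% in lumbar and 11.1% in red nucleus controls. Of all genes called, those lower at day 10 were 578 of 1274 in ocular, 476 of 925 in facial and 442 of 842 in hypoglossal controls. They were 1188 of 1967 in lumbar and 874 of 1797 in red nucleus controls. When each fit held only the 2 groups compared, 6 of the 11 remained, and the calls lost were those of Gfra2 in facial and red nucleus neurons, Lifr, Gfra1 and Ret. The Ngfr calls stayed in all alternatives tried. Ntrk2, Ntrk3 and Cntfr passed in no population.

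Other genes of these pathways also moved with age. Ncam1, which can act as a receptor for GDNF, fell in ocular (62.2 to 17.5 RPKM), facial, hypoglossal, lumbar and red nucleus controls. Kidins220, a scaffold of Trk receptors and p75, fell in 4 populations, for example from 37.0 to 18.5 in ocular neurons. Bdnf fell in facial controls from 8.28 to 1.53 RPKM and in the red nucleus from 18.0 to 2.29. Ntf3 fell in lumbar controls from 11.6 to 0.108, and in facial controls it averaged 7.05 at day 2 and was listed at 0 in all mice at day 10. Jak1 fell in facial and hypoglossal neurons (log2 changes of −0.97 and −1.005). Osmr fell in hypoglossal neurons from 6.69 to 0.575. Vgf rose in ocular and hypoglossal neurons.

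Oligodendrocyte RNA rose over the same days. In controls the summed level of 7 oligodendrocyte markers averaged 22.1 to 63.4 RPKM at day 2 and 257 to 866 at day 10 in the 5 populations in which a member was called, and 83.9 and 61.1 in the vagus. All 7 markers were called in ocular and lumbar neurons, 6 of 7 in hypoglossal and red nucleus neurons and 5 of 6 tested in facial neurons. Of the Schwann cell markers, Pmp22 rose in ocular, facial, hypoglossal and lumbar neurons. Their part in the falls of the receptors was not tested.

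Between genotypes no member passed in any single population. Over 18 comparisons of SMA with control, 150 results of members were tested, 104 of them were higher in SMA, and none was called, while 18 had an unadjusted p under 0.05, of which 17 were higher in SMA. Over all genes tested in the same comparisons, 7.10% had an unadjusted p under 0.05, of which 62.9% were higher in SMA, and 55.2% of all results were higher in SMA. The median difference over all genes ran from −0.0076 to 0.13 on the log2 scale and was above 0 in 17 of the 18 comparisons. Few genes of any kind were called in these comparisons. At days 2, 5 and 10 the percentage was 0.132, 0.0252 and 0.359 in ocular, 0.0232, 0.0695 and 0.666 in facial, 0.0364, 0.00607 and 0.0728 in hypoglossal and 0.00599 at each of the 3 days in vagus neurons. It was 0.0122, 0.0488 and 0.775 in lumbar and 0.0434, 0.00620 and 0.0124 in red nucleus neurons. The groups of 3 to 7 mice limit these tests, and a result that did not pass does not show equal levels.

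Ngfr came closest to a call. In facial neurons at day 10 SMA mice were at 46.1, 32.4, 20.9 and 25.4 RPKM and controls at 9.12, 7.19, 29.4 and 9.84. The difference was 1.26 ± 0.36 (unadjusted p = 0.00167, adjusted p = 0.144), and control mouse 253, at 29.4, was the only control above the lowest SMA mouse. Without that mouse the difference was 1.68 and was called (adjusted p = 0.0125). At day 2 facial SMA mice ran from 53.6 through a median of 72.7 to 176 RPKM against 40.7 to 54.3 in 5 controls (0.86 ± 0.30, adjusted p = 0.386). In hypoglossal neurons at day 2 the 6 SMA mice, from 38.5 through a median of 59.8 to 81.6, all lay above the 4 controls at 31.4 to 33.9 (0.84 ± 0.37, adjusted p = 0.463). Vagus SMA mice at day 2, at 1.29 to 3.83, also lay above the controls at 0.521, 0.599 and 1.28. Ngfr was higher in SMA in 12 of 18 comparisons and had the most, 5, with an unadjusted p under 0.05.

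Cntfr in hypoglossal neurons at day 2 had the largest difference among the members. The 4 controls were at 1.23, 3.30, 4.09 and 1.09 RPKM and the 6 SMA mice at 4.98 or more, with a median of 7.96 and a highest of 25.6, so the groups did not overlap. The difference was 1.60 ± 0.45 (unadjusted p = 0.00139, adjusted p = 0.208). At days 5 and 10 the hypoglossal groups overlapped, with means of 11.4 and 6.36 in SMA and 8.29 and 5.36 in controls. The test of whether the genotype difference changed with day gave adjusted p = 0.747.

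Ret and its co-receptors showed smaller or less regular differences. Ret in lumbar neurons at day 2 was at 106, 126, 126 and 122.5 RPKM in controls and from 128 through a median of 156 to 185 in 7 SMA mice, without overlap (0.31 ± 0.12, adjusted p = 0.71). At day 10 it was at 114, 108, 88.0 and 118 in controls and 107, 110.4, 78.3, 101 and 97.4 in SMA. Gfra2 in the red nucleus at day 10 was at 4.70, 3.10, 7.50 and 4.38 in SMA and at 0 to 2.55 in controls (1.48 ± 0.50, adjusted p = 0.608), where the median over all genes was 0.13. Gfra1 at day 2 differed in opposite directions in its 2 lowest populations. Vagus SMA mice ran from 0.0289 to 1.82 against 1.23, 3.81 and 1.68 in controls, and red nucleus SMA mice were at 0.0350, 0.464, 2.71 and 4.36 against 0, 0, 0.489 and 0.242 in controls. The differences were −1.01 ± 0.47 and 1.01 ± 0.41, and the test of a genotype difference that changed with population gave adjusted p = 0.0801.

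Lifr gave no unadjusted p under 0.05 in any population. Its differences ran from −0.53 in lumbar neurons at day 10 to 0.69 in vagus neurons at day 2, with a median of −0.10, and 7 of 18 were positive. In that vagus comparison the 6 SMA mice, at 6.62 to 9.57 RPKM, lay above the 3 controls at 4.29, 4.40 and 4.67. Gfra3 was tested in 6 comparisons and its lowest adjusted p was 0.554. The groups did not overlap in 7 of the 150 results (4.67%), against 3.06% of the results of all genes, and each of the 7 had an adjusted p of 0.208 or more. One of these was Ntrk3 in lumbar neurons at day 10, at 17.7 to 24.2 RPKM in 4 controls and 13.8 to 17.1 in 5 SMA mice (−0.37 ± 0.21, adjusted p = 0.589).

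**Figure D4:**
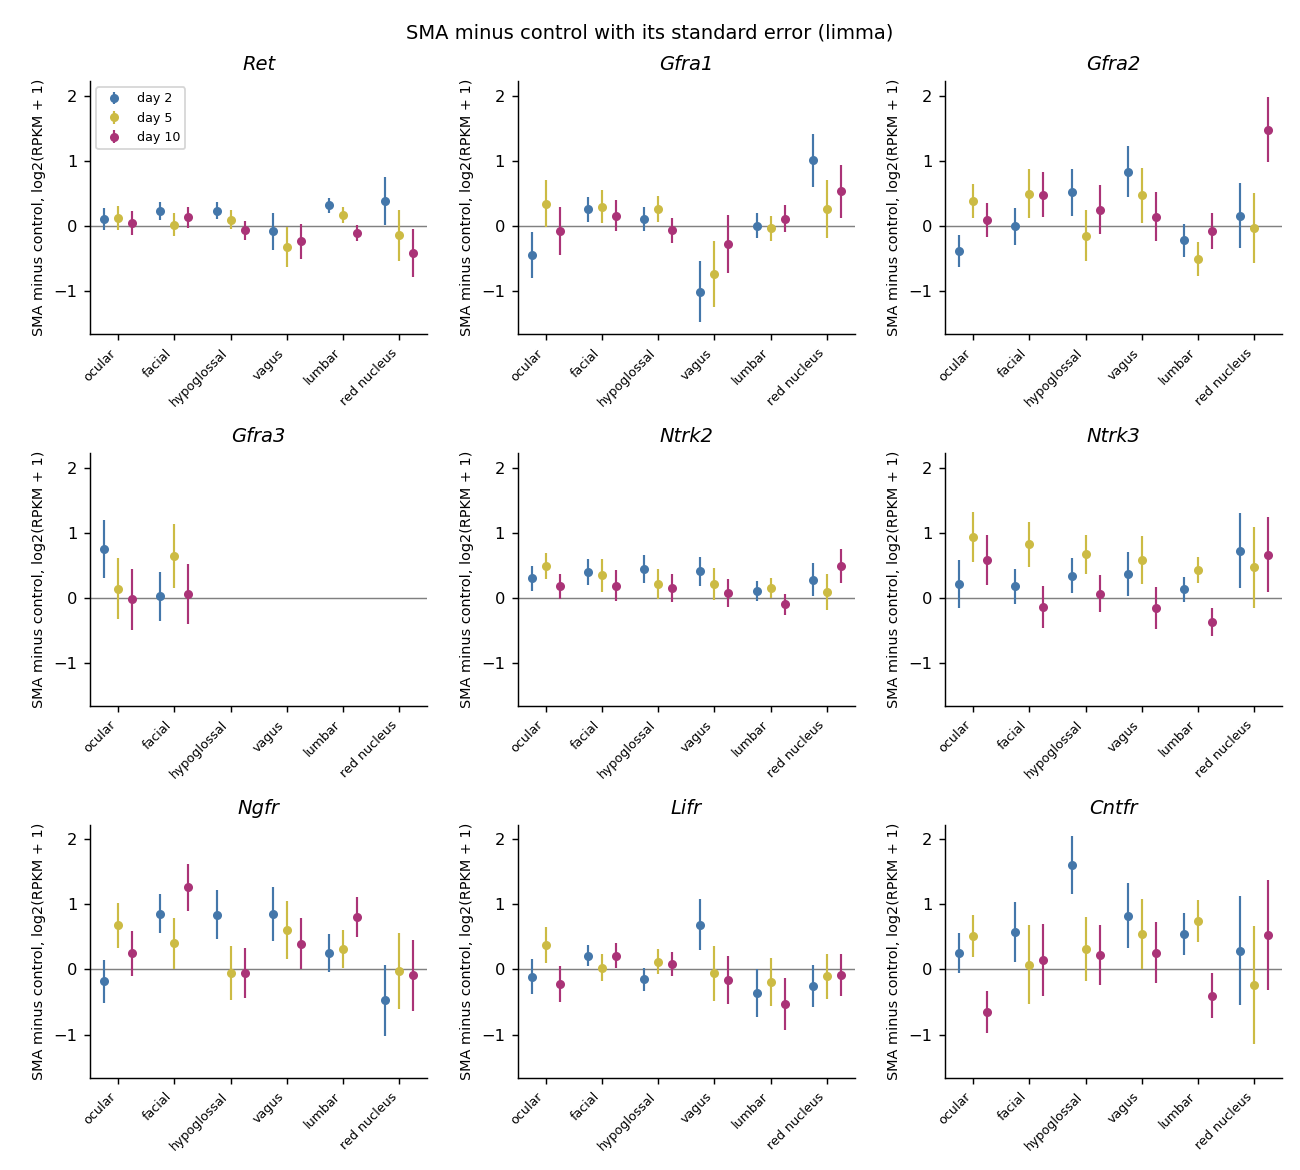
Difference between SMA and control on the log2(RPKM + 1) scale for each receptor, by population and coloured by day. Points are limma estimates and bars their standard errors, and Gfra3 is shown where it passed the filter. Ntrk2 lies above 0 in 17 of 18 comparisons with small differences, and no point passed the adjusted threshold.

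The mean difference over the 6 populations, with the mouse as a block, gave 1 call among 27 results. Ntrk2 was higher in SMA at day 2 by 0.32 ± 0.08 (adjusted p = 0.0182), where 1.54% of genes were called. SMA and control means were 30.3 and 24.0 RPKM in ocular, 28.2 and 22.0 in facial, 28.7 and 21.2 in hypoglossal, 35.7 and 26.3 in vagus, 24.5 and 22.5 in lumbar and 24.8 and 20.1 in red nucleus neurons. All 6 differences had the same sign, and the groups overlapped in all 6, so the call rests on a small shift in each population. It was lost when any of control mice 26, 240 or 244 or SMA mice 206 or 207 was left out (0.27 to 0.31, adjusted p from 0.0542 to 0.1).

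The libraries of day 2 controls carry numbers in the labels, whose meaning the labels do not give. The brain libraries of mice 14, 26 and 28 lie below all day 2 SMA numbers. Only the lumbar libraries of mice 20 and 28 lie among them. In the brain no day 2 control number thus lies among those of SMA, for any gene compared. Leaving out either set of controls does not change this. The libraries of mice 240 and 244 lie above all day 2 SMA numbers. Without these 2 mice the Ntrk2 difference was 0.24 ± 0.10 (adjusted p = 0.318), and without the 4 other controls it was 0.39 ± 0.11 (adjusted p = 0.0387). At days 5 and 10 the Ntrk2 means differed by 0.25 ± 0.09 and 0.16 ± 0.09 and did not pass (adjusted p = 0.315 and 0.502), with 0.117% and 1.78% of genes called.

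The members Cntfr and Ntrk3 came nearest to the threshold among the others. Cntfr at day 2 differed by 0.66 ± 0.22 (adjusted p = 0.117). Ntrk3 at day 5 differed by 0.64 ± 0.17 (adjusted p = 0.0898), and 1 animal stood apart in its brain libraries. SMA mouse 31 had Ntrk3 at 63.0 RPKM in ocular, 55.3 in facial, 58.5 in hypoglossal, 117 in vagus and 55.3 in red nucleus neurons but at 14.5 in lumbar neurons. The other SMA mice of that day were at 9.96 to 30.9 RPKM in all populations and the controls at 3.71 to 42.6. The brain libraries of mouse 31 carry the lowest library numbers of the series. Its lumbar library has a number among those of the other lumbar libraries of day 5. High Ntrk3 was thus seen in the brain libraries of this animal and not in its lumbar library, and the cause was not tested. Without mouse 31 the mean difference was 0.32 (adjusted p = 1). Ngfr differed by 0.35, 0.31 and 0.43 at days 2, 5 and 10, with adjusted p = 0.324, 0.653 and 0.268. Mouse 31 also had the highest Ntrk2 of day 5 in every population, at 26.5 RPKM in lumbar and 32.1 to 48.3 in brain neurons. Its Ngfr was the highest of day 5 in ocular, facial, vagus and red nucleus neurons, but not in hypoglossal or lumbar neurons. The day 5 differences of Ntrk2 and Ngfr include this mouse.

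**Figure D5:**
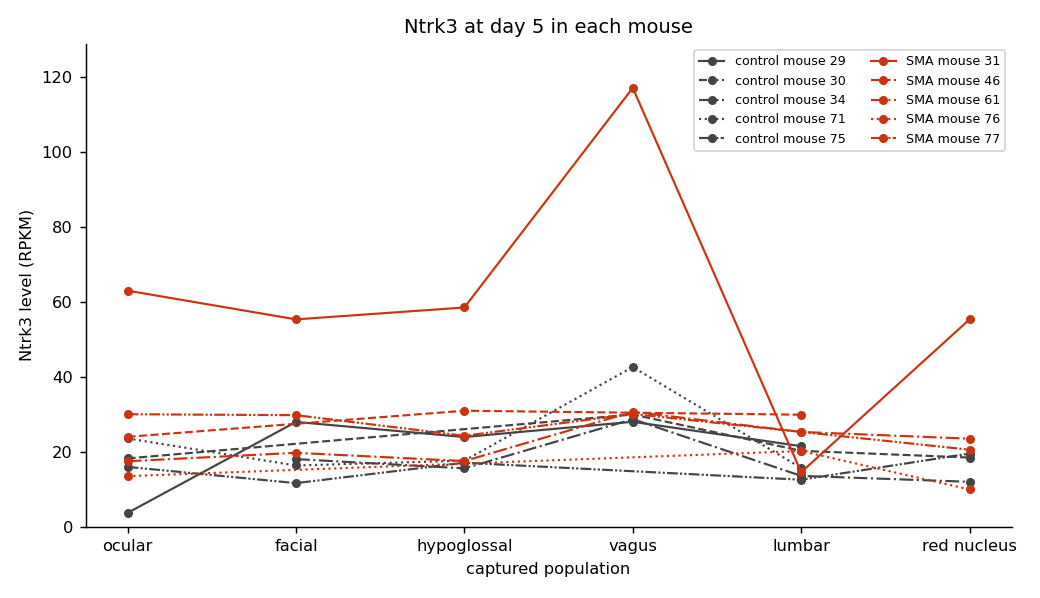
Ntrk3 level in RPKM at day 5 in each mouse, with a line joining the populations captured from 1 animal (dark, controls; red, SMA). SMA mouse 31 lies above all other mice in the 5 brain populations, at 55.3 to 117 RPKM, and at 14.5 among them in lumbar neurons. Its brain libraries, but not its lumbar library, carry the lowest library numbers of the series.

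No member's genotype difference was shown to depend on day or on population. The test over days called 0 of 50 results, with 0.101% of genes called in ocular, 0.104% in facial and 0% in hypoglossal, vagus, lumbar and red nucleus neurons, and 3 results, of Cntfr in ocular and lumbar and of Ntrk3 in lumbar neurons, had an unadjusted p under 0.05. The test over populations called 0 of 27 with 0.494%, 0.211% and 0.624% of genes called at days 2, 5 and 10, and 3 had an unadjusted p under 0.05.

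Few of the pathway's other genes were called between genotypes. In single populations the only call in the 4 lists was Gdf15, a ligand that signals through RET by way of GFRAL, higher in ocular SMA neurons at day 10. On average over populations Vgf (0.64 ± 0.11, adjusted p = 0.000101) and Fos (0.89 ± 0.22, adjusted p = 0.0146) were higher at day 2, and at day 10 Gdf15, Lif, Egr1, Ncam1 (0.32 ± 0.09, adjusted p = 0.0465) and Rtn4r (0.79 ± 0.18, adjusted p = 0.0047), the Nogo receptor that can pair with p75, were higher. None in the lists was called lower. At day 2 the library numbers limit the Vgf and Fos calls too, since no brain control number lay among those of SMA. Among markers of other cells, Gfap, an astrocyte filament, was called higher in facial SMA neurons at day 10, where Ngfr was also higher in 2 of 4 SMA mice than in every control. The summed level of 9 astrocyte markers was 1307 to 1742 RPKM there in SMA and 1258 to 1546 in controls. Aldoc made up most of this sum, with a mean of 1343 RPKM over all facial controls against 1.936 for Gfap. The overlap of the sum therefore says little about the other markers. The part of glial RNA in the Ngfr level was not tested.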

How the data were processed

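The authors deposited 1 table of RPKM values, with a column for each of the 168 libraries of about 150 laser-captured neurons (Smart-seq2, poly(A) RNA). STAR 2.4.1c and the builds mm10 and hg19 come from the submitters' processing notes, and the read counter and annotation are not given in the sources used here. Per the labels' protocols, the 5 lumbar control libraries of day 5 were pooled at mapping with reads of an earlier deposit. Libraries of 1 mouse and population were averaged in 8 samples. Of the 39410 genes, 8942 were at 0 in every library. RPKM holds no counts, but depth was recovered from the value of 1 read over 12398 genes of 1 transcript. Reads were then checked in the lower values, 94 of Ngfr, 101 of Gfra2 and 44 of Gfra3. All came out whole within 0.03 reads plus 0.0005 per read, at the gene length that fitted best. Higher values were rounded to whole reads without this check. Levels at or under 3 reads are taken as not detected, which covers counting error only.

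Groups were compared with limma 3.58.1 (R 4.3.3, moderated tests with a mean trend, two-sided) on log2(RPKM + 1), in genes at 1 RPKM or more in as many samples as the smallest group. A fold change on this scale understates the change of low genes. Each population was fitted with its 6 groups of genotype and day, and p values were adjusted by Benjamini-Hochberg over all genes of a contrast, with a threshold of 0.05. Fits over populations took the mouse as a block, since populations came from the same animals. The deviations of 1 mouse in 2 populations had a median correlation of 0.033 over 339 pairs, against −0.006 over 1480 pairs of other mice. The fitted block correlation was 0.0339 in controls and 0.0366 in all samples. Fits were tested on simulated data.

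The members and lists were chosen with earlier results of these data known. Of each list of ligands, other receptors, adaptors and kinases, and feedback and target genes, up to 4 genes that passed in the most contrasts are named, as are the 3 genes most like each member. Gdnf, Cntf, Lif, Gdf15, Gfra4, Il6st, Egr1 and the marker genes were named after their values were seen. Some listed genes are not reported here. Ntf4, Bex3 and Slc18a3 were not matched in the table by these symbols. The alternatives were a pseudocount of 0.1, no filter, quantile normalization, each library as a sample, no single-nucleus ocular libraries (11), only the groups compared, other treatments of the block and leaving out each mouse.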

Additional observations from a re-analysis of the deposited data

Results flagged for a closer look

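In groups of 4 to 7 mice, a highest or lowest mouse stood apart by Dixon's 95% criterion in 29 of 278 groups of member, population, genotype and day, where chance gives about 1 in 20. Of these, 12 concern Gfra3, whose other mice were mostly at 0. Where all other mice are at 0, any detected mouse is flagged, so the rate of 1 in 20 does not hold for Gfra3. The Gfra3 mice were control 71 (1.287 RPKM), control 254 (0.07069) in ocular, control 240 (4.242) and SMA 199 (0.1722) in facial, control 71 (0.06455), SMA 31 (0.04476) and SMA 258 (2.686) in hypoglossal, and SMA 258 (0.2321) in vagus neurons. They also included control 71 (0.7198) and SMA 250 (0.2162) in lumbar and control 14 (0.7556) and SMA 31 (0.01541) in red nucleus neurons.

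Low Ret set apart control mouse 247 in ocular neurons at day 10 (41.38 RPKM against 58.2 to 61.8), SMA mouse 196 in the vagus at day 10 (17.86) and control mouse 20 in lumbar neurons at day 2 (106.2). High Gfra1 set apart control mouse 26 (32.92) and SMA mouse 18 (41.33) in hypoglossal neurons at day 2 and control mouse 253 in the vagus at day 10 (3.076 against at most 0.186).

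Among the Trk receptors, Ntrk2 was low in control mouse 247 in hypoglossal neurons at day 10 (18.15). Ntrk3 was high in SMA mouse 250 in ocular neurons at day 10 (28.14) and in control mouse 71 in the vagus at day 5 (42.59). It was low in SMA mouse 249 in facial neurons (10.22 against 22.9 to 26.5) and in control mouse 247 in the red nucleus (3.42 against 19.5 to 22.9), both at day 10.

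Ngfr was low in SMA mouse 196 in the red nucleus at day 10 (0.6339), and Lifr in control mouse 253 in lumbar neurons at day 10 (9.941 against 21.5 to 24.9). Cntfr was high in SMA mouse 196 in ocular neurons at day 10 (12.26), in SMA mouse 211 in hypoglossal neurons at day 2 (25.65 against 4.98 to 8.53) and in control mouse 75 in lumbar neurons at day 5 (10.51). It was low in control mouse 29 in hypoglossal neurons at day 5 (3.164). Control mouse 71 accounts for 4 of the 29, and mice 196 and 247 for 3 each.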

How the results depend on the processing

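No called result of a member reversed under the alternatives run. The 34 calls between populations in controls ranged from 33 to 36 over the alternatives that kept all mice, and the 0 calls of a genotype difference that changed with day stayed at 0. The 11 calls with age became 6 when a fit held only the groups compared. The 0 calls of SMA against control ranged from 0 to 1 when 1 mouse was left out, the call being Ngfr in facial neurons at day 10 without control mouse 253. A genotype difference that changed with population went from 0 calls to 1, Gfra1 at day 2, with a pseudocount of 0.1, and ranged from 0 to 1 with 1 mouse left out.

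The 1 call of the mean difference over populations became 2 with each library as its own sample, and ranged from 0 to 3 with 1 mouse left out. It became 0 without the day 2 controls whose library numbers lie above those of SMA, an alternative chosen after seeing the data. Without the replicate block there were 3 such calls, Cntfr at day 2 and Ntrk3 at day 5 besides Ntrk2 at day 2. With the mouse as a fixed replicate block, 88 of 90 results kept their side of the threshold, 1 was lost and 1 gained. Leaving out 1 mouse at a time lost 24 and gained 17 calls in 4622 refitted results, and the cause of these changes was not tested. Low depth limits Gfra3 everywhere, Gfra1 in the vagus and red nucleus, and Ngfr in vagus and lumbar neurons at day 10.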
